A study of Mus musculus with 6 samples.

Results

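The genes described here are the mouse heat shock proteins and their J-domain co-chaperones, with the heat shock transcription factors. They were taken by symbol: every gene of the value table named Hspa, Hspb, Hspd, Hspe, Hsph, Hsp90, Dnaja, Dnajb or Dnajc with a number, together with Hsf1 and Hsf2. This gave 71 genes of the 19938 that were tested, each read by the brightest probe set that the array's annotation assigns to that gene alone. Hsf1, Hsp90ab1 and Hspa1b fit the names but had no such probe set and are not analysed here, so 71 is the number measured and not the whole family. The arrays hold total RNA of BCR-ABL1-transformed pre-B cells of strain 129P2/OlaHsd, a mouse model of acute lymphoblastic leukaemia driven by a fusion tyrosine kinase. Cells of 3 arrays carried the construct PMIP-CRE-ERT2, which encodes a Cre recombinase that is inactive until it binds tamoxifen. Those of the other 3 carried PMIP-ERT2, the same receptor domain without Cre. All cells were Ptpn6 +/fl, were puromycin resistant, and had 0.5 micromolar of 4OH-Tamoxifen for 2 days, so an unfloxed allele of Ptpn6 remains in both groups and tamoxifen alone is not tested. The labels do not say whether the 3 samples of a group are separate cultures, so each p-value rests on a spread between samples that could be purely technical.

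Heat shock proteins keep other proteins folded. HSP70 proteins bind exposed hydrophobic stretches and release them in a cycle of ATP hydrolysis, which J-domain proteins of the DNAJA, DNAJB and DNAJC classes start and HSP110 proteins help to end by exchanging the nucleotide. HSP90 takes over late folding steps of kinases and receptors, BCR-ABL1 among its known clients, and also holds the hormone-binding domain of steroid receptors, which is the domain fused to Cre in the ERT2 system. In stress, HSF1 switches on the inducible members, and lack of folding capacity in the endoplasmic reticulum switches on a separate set there.

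Ptpn6 encodes the tyrosine phosphatase SHP-1 and is the floxed gene. Its log2 expression was 11.36, 11.25 and 11.20 in the CRE-ERT2 arrays, against 11.25, 11.39 and 11.39 in the ERT2 arrays. The groups overlapped, and the difference of -0.07 (SE 0.08) did not pass (limma adjusted p = 0.759, exact two-sided permutation p = 0.3, where 3 arrays against 3 cannot go below 0.1). Whether its probe set lies in the deleted part is not known here, so this level does not check the labels. Array medians lay between 7.90 and 7.98. The 9 pre-B cell markers measured lay between log2 values of 9.48 and 14.46. The 5 T cell, 3 NK cell and 2 erythroid markers lay between 5.35 and 7.96, the 5 myeloid markers between 6.46 and 9.21, the 3 plasma cell markers between 6.69 and 9.71 and the 4 stromal markers between 7.02 and 9.04. The summed pre-B markers were 16.26 to 16.28 in the CRE-ERT2 arrays and 16.15 to 16.22 in the ERT2 arrays, as log2 of the sum. On the same scale the summed myeloid markers were 10.02 to 10.06 in the CRE-ERT2 arrays and 10.08 to 10.15 in the ERT2 arrays, the NK cell markers 7.90 to 7.93 in the CRE-ERT2 arrays and 7.95 to 8.05 in the ERT2 arrays, and the plasma cell markers 9.917 to 10.261 in the CRE-ERT2 arrays and 10.263 to 10.291 in the ERT2 arrays. These 3 sums were lower in CRE-ERT2 and the pre-B sum higher, with no overlap of the groups. The T cell, erythroid and stromal sums overlapped. Dntt, an enzyme that adds bases to antigen receptor joints, rose by 0.48 on the log2 scale (limma adjusted p = 0.00369). No other gene of the pre-B marker list, in which it was counted, passed. Sdc1, a plasma cell surface proteoglycan, fell by 0.44 (limma adjusted p = 0.0209). Markers of the remaining cell types did not pass. The other plasma cell markers measured did not pass, with changes of 0.34 for Jchain (limma adjusted p = 0.120) and -0.0035 for Prdm1 (limma adjusted p = 0.992). The part of these differences in the results below was not tested. In bulk RNA a smaller number of cells of one kind and less RNA per cell cannot be told apart.

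Expression of the heat shock and J-domain genes differed little between the groups. Across all 71 genes the log2 changes, taken here and below as CRE-ERT2 minus ERT2, ran from -0.31 (1.24-fold lower) to 0.30 (1.23-fold higher). Of the 71, 1 fell and 0 rose by limma's test at an adjusted p under 0.05. That is 1.41% of the members, where 4.58% of all genes tested passed, 2.28% lower and 2.3% higher. No member reached a change of 0.5, which 317 (1.59%) of the 19938 genes did. The 95% confidence intervals describe the precision gene by gene. They do not hold jointly for all 71 genes, and they rest on a spread between samples that could be purely technical. Over the 71 genes the lowest lower bound was -0.49 and the highest upper bound 0.49, so a change of 1.41-fold or more in either direction lay outside the interval of every member measured.

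**Figure D1:**
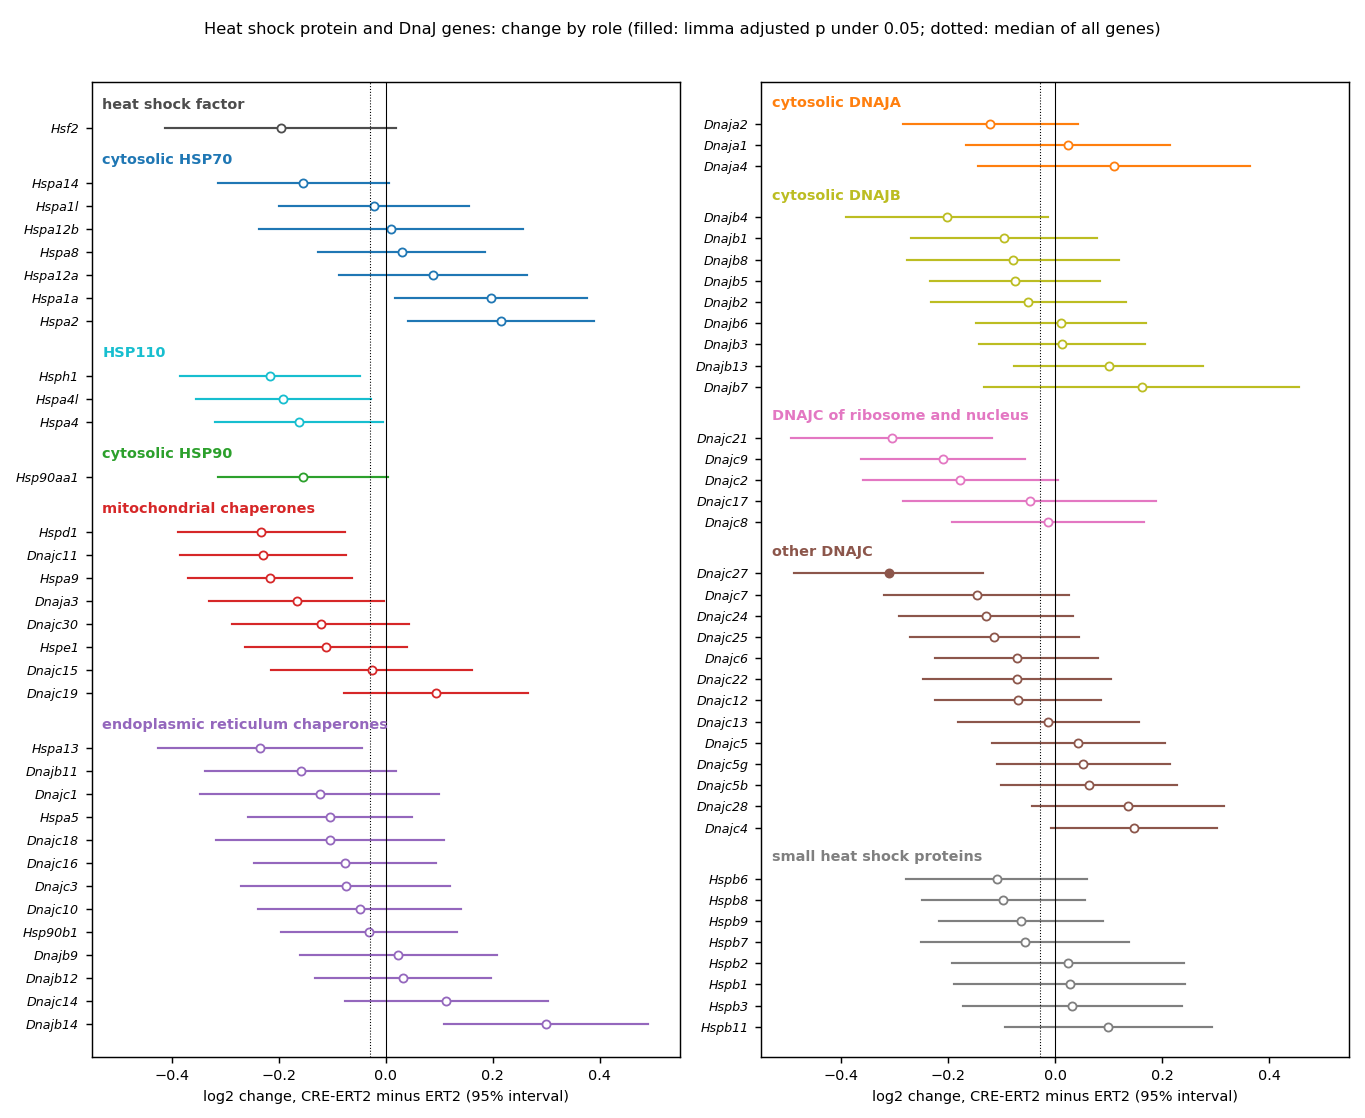
The points are log2 changes (CRE-ERT2 minus ERT2) of the 71 genes with 95% confidence intervals, grouped by role, and the dotted line is the median of all genes. Only the point of Dnajc27 is filled (adjusted p under 0.05), and no interval reaches 0.5 in either direction.

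The direction of the small differences was mostly down. Of the 71 genes, 46 (64.8%) had a lower mean in the CRE-ERT2 arrays, close to the 61.1% of all genes that did. Their median change was -0.07, against -0.03 over all genes, and their median absolute change was 0.10, against 0.08. At an unadjusted p under 0.05, 12 members were lower (16.9%, where 11.1% of all genes were) and 3 were higher (4.23%, where 5.29% were). The 3 CRE-ERT2 arrays lay wholly below the 3 ERT2 arrays for 21 members (29.6%, where 15.5% of all genes did so) and wholly above them for 3 (4.23%, where 6.92% did). These shares are descriptions, and no test of the members as a set was made. The spread within groups was like that of other genes, with a median SD of 0.09 for the members and 0.10 for all genes.

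One control array stood apart from the rest in these genes. ERT2 replicate 1 held the highest of the 6 values for 39 members (54.9%), where it did so for 31.3% of all genes. The median deviation of the members from their own means was 0.08 on that array, 0.02 on each of the other ERT2 arrays, and -0.02, -0.04 and -0.03 on CRE-ERT2 replicates 1, 2 and 3. Without ERT2 replicate 1 the median change of the members was -0.05, against -0.02 over all genes, and 7 members (9.86%) were lower at an unadjusted p under 0.05, where 8.56% of all genes were. Without CRE-ERT2 replicate 2, which held the lowest value for 23 members, that number was 5 (7.04%), where 7.58% of all genes were. Leaving out either array brought the members' share close to that of all genes. These arrays held the members' highest or lowest value most often, so a smaller share could follow from that choice alone. Without any one of the other arrays the share stayed further above that of all genes. It was 16.9% (all genes 11.3%) without CRE-ERT2 replicate 1 and 14.1% (7.66%) without CRE-ERT2 replicate 3. Without ERT2 replicate 2 it was 18.3% (11.5%), and without ERT2 replicate 3 it was 19.7% (12%). Whether single arrays cause the members' shift was not tested.

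**Figure D2:**
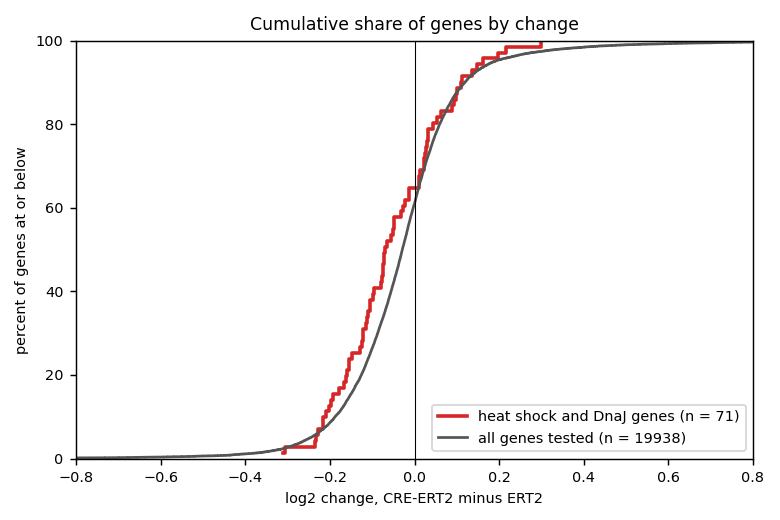
Cumulative percentage of genes at or below each log2 change (CRE-ERT2 minus ERT2), for the 71 heat shock and DnaJ genes and for all 19938 genes tested. The members' median of -0.07 lies left of the -0.03 of all genes, and the members' curve has no tails beyond -0.31 and 0.30.

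Dnajc27 encodes a Rab-like small GTPase that carries a J domain, and it was the member that passed. Its log2 expression on probe set 10394245 was 9.56, 9.56 and 9.56 in the CRE-ERT2 arrays, against 9.95, 9.95 and 9.71 in the ERT2 arrays. The CRE-ERT2 values lay close together (SD 0.002) and below all ERT2 values (SD 0.14), of which replicate 3 was the lowest. The change was -0.31 (SE 0.08, 95% interval -0.49 to -0.13) with an adjusted p of 0.0499, just inside the threshold. The call did not hold in most other settings: the adjusted p was 0.0542 after a further quantile normalization, 0.0517 with arrays centred on their medians and 0.218 with all probe sets tested. It was also lost without any one of the CRE-ERT2 arrays or without ERT2 replicate 1 or 2, with adjusted p between 0.119 and 0.181.

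Just outside the threshold stood Dnajc21, a nucleolar J-domain protein needed to mature the large ribosomal subunit. Its log2 expression was 11.26, 11.17 and 11.40 in the CRE-ERT2 arrays, against 11.72, 11.54 and 11.49 in the ERT2 arrays. Every CRE-ERT2 value lay below every ERT2 value, CRE-ERT2 replicate 3 and ERT2 replicate 3 being the closest. The change was -0.31 (SE 0.09, adjusted p = 0.0683). Dnajb14, a J-domain protein anchored in the membrane of the endoplasmic reticulum, was the member with the largest difference upward, at 8.74, 8.57 and 8.44 in the CRE-ERT2 arrays, against 8.38, 8.21 and 8.27 in the ERT2 arrays. Its groups did not overlap either, and the change was 0.30 (SE 0.09, adjusted p = 0.0800). The calls moved with the settings. With a trended and robust variance, 4 members fell, Dnajc27, Dnajc21, Hspd1 and Hspa9, where 4.8% of all genes fell. With only the 13292 brightest genes tested, 3 of the 62 members among them passed, Dnajc27 and Dnajc21 lower and Dnajb14 higher, where 9.48% of those genes passed.

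**Figure D3:**
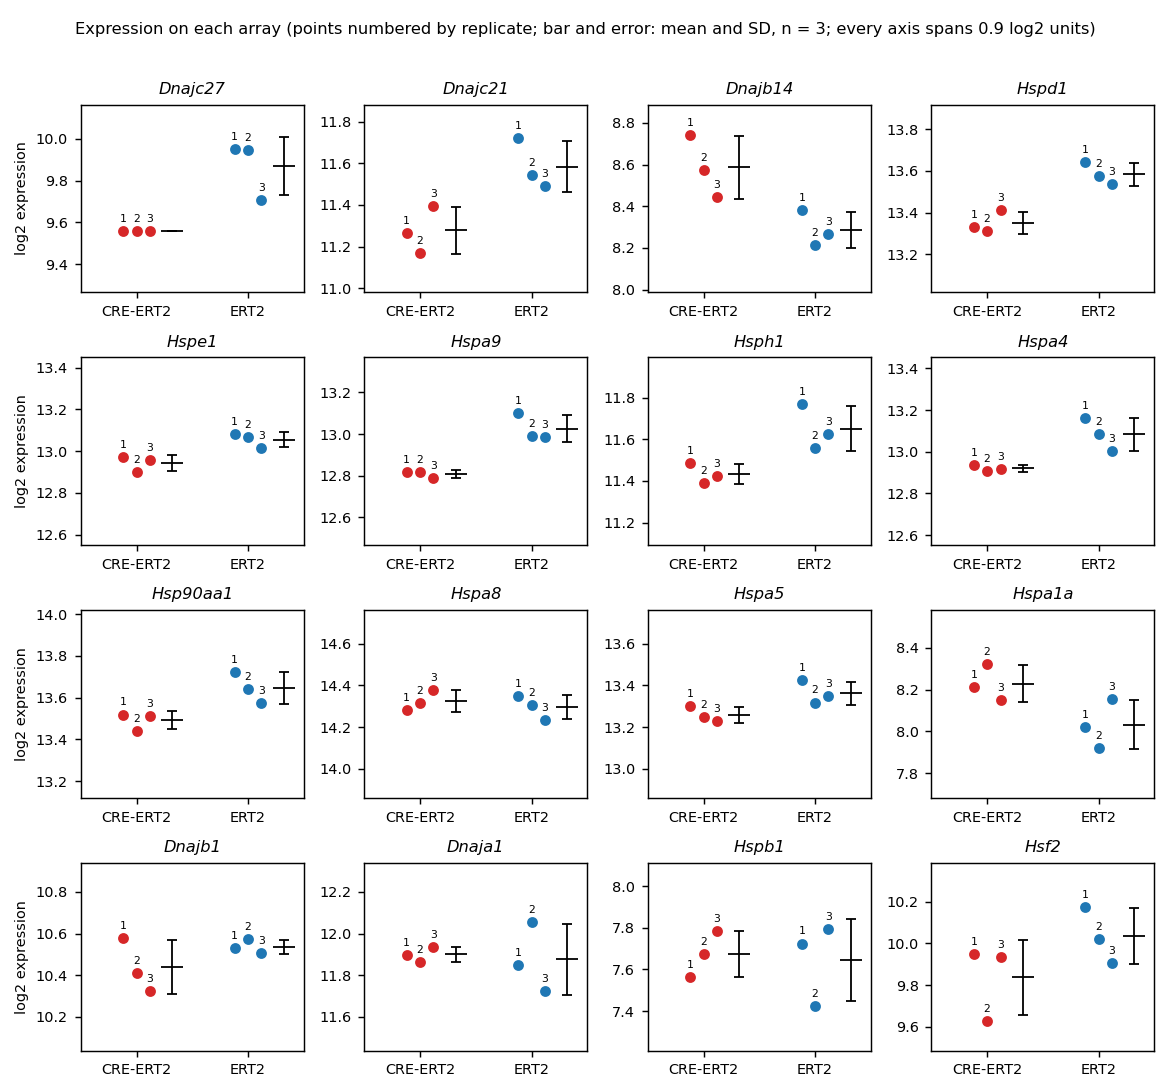
Log2 expression of 16 members on each array, with CRE-ERT2 on the left and ERT2 on the right of each panel, points numbered by replicate and the mean and SD of 3 arrays beside them. Every vertical axis spans 0.9 log2 units. The CRE-ERT2 points of Dnajc27, Dnajc21, Hspd1, Hspe1, Hspa9, Hsph1, Hspa4, Hsp90aa1 and Hspa5 lie below all ERT2 points, as in 15.5% of all genes. Those of Dnajb14 lie above, as in 6.92% of all genes, while the groups overlap for Hspa8, Hspa1a, Dnajb1, Dnaja1, Hspb1 and Hsf2.

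HSF2, the heat shock factor among the 71 genes, acts in development and forms trimers with HSF1. Hsf2 was read at 9.95, 9.63 and 9.93 in the CRE-ERT2 arrays, against 10.17, 10.02 and 9.91 in the ERT2 arrays. CRE-ERT2 replicate 2 was the lowest array, the groups overlapped, and the difference of -0.20 (SE 0.10) did not pass (adjusted p = 0.365).

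Among 7 cytosolic HSP70 genes none passed, 2 had a lower and 5 a higher mean, and the median change was 0.03. Hspa8 encodes the constitutive HSC70 protein. It was read at 14.28, 14.32 and 14.38 in the CRE-ERT2 arrays, against 14.35, 14.31 and 14.23 in the ERT2 arrays, and the groups overlapped. Its change of 0.03 had a 95% interval of -0.13 to 0.19, its other 2 probe sets gave 0.04 and 0.03, and a further quantile normalization turned its sign (-0.0088). Hspa1a encodes the stress-inducible HSP70. Its values were 8.21, 8.32 and 8.15 in the CRE-ERT2 arrays, against 8.02, 7.92 and 8.16 in the ERT2 arrays, with a difference of 0.20 (SE 0.08, adjusted p = 0.252). CRE-ERT2 replicate 3 lay just below the highest ERT2 array. Hspa2, an HSP70 best known from the testis, had values of 9.42, 9.25 and 9.23 in the CRE-ERT2 arrays, against 9.18, 9.03 and 9.05 in the ERT2 arrays. The groups did not overlap, and the difference of 0.22 (SE 0.08) did not pass (adjusted p = 0.180). Hspa14, a ribosome-associated HSP70, differed by -0.15, and Hspa12a, Hspa12b and Hspa1l by 0.09, 0.01 and -0.02. HSP70 coding sequences are much alike, so these probe sets may in part read transcripts of one another.

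The 3 HSP110 genes, whose products exchange the nucleotide of HSP70, had differences of one direction and like size, and none passed. Hsph1 had 11.48, 11.39 and 11.43 in the CRE-ERT2 arrays, against 11.77, 11.56 and 11.62 in the ERT2 arrays, a difference of -0.22 (SE 0.08, adjusted p = 0.162). The values of Hspa4 were 12.94, 12.91 and 12.92 in the CRE-ERT2 arrays, against 13.16, 13.08 and 13.00 in the ERT2 arrays, a difference of -0.16 (SE 0.07, adjusted p = 0.287). For Hspa4l they were 9.16, 9.15 and 9.28 in the CRE-ERT2 arrays, against 9.47, 9.38 and 9.32 in the ERT2 arrays, a difference of -0.19 (SE 0.08, adjusted p = 0.210). In each of the 3 genes all CRE-ERT2 arrays lay below all ERT2 arrays, as in 15.5% of all genes, and ERT2 replicate 1 was the highest array, as in 31.3% of all genes.

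Hsp90aa1 encodes the inducible cytosolic HSP90. Its values were 13.52, 13.44 and 13.51 in the CRE-ERT2 arrays, against 13.72, 13.64 and 13.58 in the ERT2 arrays. The groups did not overlap, ERT2 replicate 1 was again the highest, and the difference of -0.16 (SE 0.07) did not pass (adjusted p = 0.320). The other 2 probe sets of Hsp90aa1 gave -0.14 and -0.13.

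Mitochondrial chaperones fold proteins that arrive unfolded through the import channels. Of the 8 genes sorted into this group, 0 passed and 7 had a lower mean, where 61.1% of all genes did. In 6 the CRE-ERT2 arrays lay wholly below the ERT2 arrays, which they did for 15.5% of all genes. ERT2 replicate 1 was the highest array for Hspd1, Hspe1, Hspa9, Dnajc11, Dnaja3 and Dnajc15, as in 31.3% of all genes. It was not the highest for Dnajc30 and Dnajc19. The median change was -0.14. Hspd1 encodes HSP60, the barrel-shaped chaperonin of the matrix, and Hspe1 encodes HSP10, its lid. They lie head to head on chromosome 1 and are transcribed from one shared promoter region. A RefSeq window of 300 bases for Hspd1 on the minus strand, chr1:55087883-55088182 (GRCm38.p6), has 285 bases in common with the Hspe1 window on the plus strand. A second Hspd1 window, chr1:55088194-55088493 on the minus strand, has 4 bases in common with it. The 200 bases before the Hspe1 start are shown because this region serves both genes of the pair and holds a full heat shock element, the HSF1 binding motif. The capitals mark its matches, which overlap.
Hspe1 promoter, chr1:55087948-55088147, plus strand: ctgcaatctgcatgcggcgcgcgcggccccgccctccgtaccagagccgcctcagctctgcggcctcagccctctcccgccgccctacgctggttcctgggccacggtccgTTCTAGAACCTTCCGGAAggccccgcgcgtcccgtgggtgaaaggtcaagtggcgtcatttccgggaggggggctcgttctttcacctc

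Hspd1 was read at 13.33, 13.31 and 13.41 in the CRE-ERT2 arrays, against 13.64, 13.57 and 13.54 in the ERT2 arrays. The groups did not overlap and the difference was -0.23 (SE 0.07, 95% interval -0.39 to -0.08, adjusted p = 0.0976), and its second probe set gave -0.26. Hspe1 was read at 12.97, 12.90 and 12.96 in the CRE-ERT2 arrays, against 13.08, 13.07 and 13.01 in the ERT2 arrays. Here too the groups stood apart, with a difference of -0.11 (SE 0.07, adjusted p = 0.487) on one probe set and -0.11 on the other. The gene table names 5 pseudogenes of Hspd1 and 7 of Hspe1, and the annotation does not say which copies each probe set reads.

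Hspa9 encodes mortalin, the HSP70 of the matrix that pulls proteins through the inner membrane. Its values were 12.82, 12.82 and 12.79 in the CRE-ERT2 arrays, against 13.10, 12.99 and 12.99 in the ERT2 arrays. The CRE-ERT2 arrays lay close together and all below the ERT2 arrays, with a difference of -0.22 (SE 0.07, adjusted p = 0.118). Dnajc11, a J-domain protein of the mitochondrial membranes needed for cristae, had 10.45, 10.38 and 10.35 in the CRE-ERT2 arrays, against 10.66, 10.65 and 10.56 in the ERT2 arrays. Its difference was -0.23 (SE 0.07, adjusted p = 0.102), again with no overlap. Dnaja3, the main J-domain partner of mortalin, differed by -0.17 (adjusted p = 0.295). Dnajc30, Dnajc15 and Dnajc19 differed by -0.12, -0.03 and 0.09. The last was the only gene sorted into the mitochondrial group that had a higher mean.

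The endoplasmic reticulum has its own HSP70, HSP90 and J-domain proteins, which are induced together when unfolded proteins gather there. Of 13 such genes 0 passed, 9 had a lower and 4 a higher mean, and the median change was -0.08. The promoters of Hspa5, Hsp90b1 and Dnajc3 are shown because they hold the motif pair through which that induction is known to act, CCAAT and CCACG separated by 9 bases, which the capitals mark on either strand. All are RefSeq sequences of GRCm38.p6, the 250 bases before the start on the gene's own strand.
Hspa5 promoter, chr2:34771840-34772089, plus strand: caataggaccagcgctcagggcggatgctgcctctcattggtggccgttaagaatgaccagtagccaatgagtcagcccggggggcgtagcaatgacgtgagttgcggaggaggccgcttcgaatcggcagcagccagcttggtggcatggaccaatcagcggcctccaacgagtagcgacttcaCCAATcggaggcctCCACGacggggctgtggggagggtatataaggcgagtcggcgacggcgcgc
Hsp90b1 promoter, chr10:86705445-86705694, minus strand: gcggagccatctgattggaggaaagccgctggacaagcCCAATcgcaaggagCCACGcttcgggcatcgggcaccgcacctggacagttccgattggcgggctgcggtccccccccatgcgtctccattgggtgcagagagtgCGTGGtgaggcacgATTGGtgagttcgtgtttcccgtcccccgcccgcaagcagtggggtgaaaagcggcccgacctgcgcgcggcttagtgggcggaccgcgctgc
Dnajc3 promoter, chr14:118937682-118937931, plus strand: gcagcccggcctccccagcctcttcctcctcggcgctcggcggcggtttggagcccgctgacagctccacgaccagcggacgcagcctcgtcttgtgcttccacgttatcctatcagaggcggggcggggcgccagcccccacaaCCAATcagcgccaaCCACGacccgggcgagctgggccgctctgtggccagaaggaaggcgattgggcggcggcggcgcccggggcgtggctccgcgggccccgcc

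Hspa5 encodes BiP, the HSP70 of the endoplasmic reticulum. It was read at 13.30, 13.25 and 13.23 in the CRE-ERT2 arrays, against 13.42, 13.32 and 13.35 in the ERT2 arrays, and its difference of -0.11 (SE 0.07) did not pass (adjusted p = 0.538). All CRE-ERT2 arrays lay below the ERT2 arrays, replicate 1 of CRE-ERT2 and replicate 2 of ERT2 being nearly level. Hsp90b1 encodes GRP94, the HSP90 of that compartment. Its values were 13.29, 13.28 and 13.25 in the CRE-ERT2 arrays, against 13.42, 13.28 and 13.21 in the ERT2 arrays, the groups overlapped, and the difference was -0.03 with a 95% interval of -0.20 to 0.13. Dnajc3 encodes p58IPK, which binds BiP and restrains the kinase PERK. Its values were 11.81, 11.68 and 11.82 in the CRE-ERT2 arrays, against 12.04, 11.74 and 11.76 in the ERT2 arrays, with overlapping groups and a difference of -0.08 (95% interval -0.27 to 0.12). For Hsp90b1 and Dnajc3 the sign turned without ERT2 replicate 1, to 0.02 in each, so no direction can be given.

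Hspa13, an HSP70-like protein of microsomes, had the largest downward difference in the compartment, at 10.70, 10.47 and 10.59 in the CRE-ERT2 arrays, against 10.95, 10.83 and 10.69 in the ERT2 arrays. CRE-ERT2 replicate 1 lay just above ERT2 replicate 3, and the change of -0.24 (SE 0.09) did not pass (adjusted p = 0.181). The BiP co-chaperones Dnajb11, Dnajb9 and Dnajc10 differed by -0.16, 0.02 and -0.05, with adjusted p of 0.374, 0.954 and 0.882.

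The cytosolic J-domain proteins of the DNAJA and DNAJB classes deliver substrates to HSC70 and HSP70. Of 3 DNAJA and 9 DNAJB genes 0 passed, and the median changes were 0.02 and -0.05. The DNAJA median is the value of Dnaja1 on its brightest probe set, which its other probe set does not share. Dnajb1 encodes HSP40, the inducible partner of HSP70. It was read at 10.58, 10.41 and 10.33 in the CRE-ERT2 arrays, against 10.53, 10.57 and 10.51 in the ERT2 arrays, the groups overlapped, and the difference was -0.10 (SE 0.08, adjusted p = 0.651). Dnaja1 was read at 11.90, 11.86 and 11.94 in the CRE-ERT2 arrays, against 11.85, 12.06 and 11.72 in the ERT2 arrays, ERT2 replicates 2 and 3 being the highest and lowest of the 6. Its difference was 0.02 (95% interval -0.17 to 0.21), but a second, dimmer probe set gave -0.24, so the probe sets of Dnaja1 disagree and their mean gives -0.11. The gene table names 1 pseudogene of Dnaja1, and the annotation does not say which copy each probe set reads. Dnaja2 differed by -0.12, Dnajb4 by -0.20 (adjusted p = 0.262) and Dnajb6, which holds back protein aggregation, by 0.01.

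DNAJC proteins share the J domain and little else. The 5 that act at the ribosome or in the nucleus all had a lower mean, where 61.1% of all genes did. Their median change was -0.18, and 0 passed. Beside Dnajc21, Dnajc9, a histone chaperone, was read at 11.06, 11.00 and 11.10 in the CRE-ERT2 arrays, against 11.31, 11.25 and 11.22 in the ERT2 arrays. No values overlapped, and the difference was -0.21 (SE 0.07, adjusted p = 0.133). Dnajc2, the J-domain subunit of the ribosome-associated complex, was read at 10.68, 10.56 and 10.70 in the CRE-ERT2 arrays, against 10.98, 10.76 and 10.74 in the ERT2 arrays, a difference of -0.18 (SE 0.08, adjusted p = 0.322). Its partner Hspa14, given above, differed by a like amount. Among 13 other DNAJC genes Dnajc27 fell, 8 had a lower and 5 a higher mean, and the median was -0.07. Dnajc7, which links HSP70 and HSP90, differed by -0.15 and Dnajc5, the vesicle protein CSP, by 0.04. Dnajc13 has 15 probe sets of its own, whose changes ran from -0.12 to 0.11.

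Small heat shock proteins hold unfolded proteins without using ATP and belong mostly to muscle and other solid tissues. Of 8 genes sorted here by an Hspb symbol, which alone does not show that each is such a protein, 0 passed. Of them 4 had a lower and 4 a higher mean, and the median change was -0.02. Hspb1, the best known, was read at 7.56, 7.67 and 7.78 in the CRE-ERT2 arrays, against 7.72, 7.42 and 7.79 in the ERT2 arrays. ERT2 replicate 2 was the lowest array and ERT2 replicate 3 the highest, and the difference of 0.03 (95% interval -0.19 to 0.24) turned negative without CRE-ERT2 replicate 3 or ERT2 replicate 2. Hspb8, which works with BAG3, differed by -0.10.

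HSF1 binds inverted repeats of the unit GAA, and the promoters were searched for them. RefSeq windows were found for 58 of the 71 genes, and the 250 bases before the start were searched for GAANNTTC or TTCNNGAA, each its own reverse complement, so both strands are covered. At least 1 match lay in 13 of the 58 (22.4%), where 14.5% of all genes with a window had one. The element with 3 units in a row lay in 3, Hspd1, Hspe1 and Dnajb6 (5.17%, where 0.514% of all genes had it). An Hspd1 window shares 285 bases with the Hspe1 window, so the element shown above for Hspe1 is counted for both genes in both shares. The CCAAT and CCACG pair lay in Hspa5, Hsp90b1 and Dnajc3 (5.17%, where 0.130% of all genes had it). Genes with a 2-unit match had a median change of -0.05 and those without one -0.06. A match is a description of letters and not a binding site. The promoters of Hsph1, Hspa1a and Dnajc27, the 250 bases before the start (RefSeq, GRCm38.p6), are shown with the 2-unit match in capitals because the changes of these genes differ in sign: Hsph1 and Dnajc27 had a lower mean and Hspa1a a higher one.
Hsph1 promoter, chr5:149636337-149636586, minus strand: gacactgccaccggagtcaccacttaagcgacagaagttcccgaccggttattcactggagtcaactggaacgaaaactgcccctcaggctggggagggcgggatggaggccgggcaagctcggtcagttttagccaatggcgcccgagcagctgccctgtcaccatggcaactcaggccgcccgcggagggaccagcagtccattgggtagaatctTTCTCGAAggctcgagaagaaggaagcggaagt
Hspa1a promoter, chr17:34972157-34972406, minus strand: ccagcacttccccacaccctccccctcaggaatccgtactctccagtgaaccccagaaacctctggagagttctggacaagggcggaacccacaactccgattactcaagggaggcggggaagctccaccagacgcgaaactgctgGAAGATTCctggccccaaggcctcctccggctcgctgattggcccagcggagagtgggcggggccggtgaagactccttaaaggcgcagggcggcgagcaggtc
Dnajc27 promoter, chr12:4082324-4082573, plus strand: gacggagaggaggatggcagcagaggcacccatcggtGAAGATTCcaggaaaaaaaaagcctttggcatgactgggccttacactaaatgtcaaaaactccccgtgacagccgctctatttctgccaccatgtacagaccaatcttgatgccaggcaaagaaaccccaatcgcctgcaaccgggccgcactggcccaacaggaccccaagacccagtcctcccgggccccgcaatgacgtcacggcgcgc

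The match lies at positions -33 to -26 from the start in Hsph1, -104 to -97 in Hspa1a and -213 to -206 in Dnajc27. The log2 changes of these genes were -0.22, 0.20 and -0.31, of which the last passed.

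Genes that work with the heat shock proteins were read from 6 lists of 87 names, 83 of them measured. Across these lists 3 genes fell and 0 rose, where 2.28% and 2.3% of all genes did. Of 18 HSP70 cofactors, a mixed list with the BAG genes among others, 0 passed and the median change was -0.11. Bag5 differed by -0.28 (limma adjusted p = 0.0961) and Bag2 by -0.22 (limma adjusted p = 0.136). Of 16 HSP90 co-chaperones, with the mitochondrial HSP90 counted among them, 0 passed and the median was -0.13. Ppid and Fkbp4, peptidyl-prolyl isomerases of the steroid receptor complexes, both differed by -0.24, with adjusted p of 0.0904 and 0.0926.

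Of 14 subunits of the TRiC chaperonin, which folds actin and tubulin, and of prefoldin, 1 fell and the median was -0.14. That gene was Cct8, a TRiC subunit, with 12.38, 12.37 and 12.30 in the CRE-ERT2 arrays, against 12.69, 12.63 and 12.60 in the ERT2 arrays. The groups stood apart and the change was -0.29 (SE 0.07, adjusted p = 0.0332). Of 12 mitochondrial import factors and proteases, 2 fell and the median was -0.15. Afg3l2, a protease subunit of the inner membrane, had 11.48, 11.37 and 11.39 in the CRE-ERT2 arrays, against 11.80, 11.74 and 11.63 in the ERT2 arrays, a change of -0.31 (SE 0.08, adjusted p = 0.0375). Htra2, a protease of the space between the membranes, had 11.74, 11.68 and 11.61 in the CRE-ERT2 arrays, against 11.93, 11.96 and 11.95 in the ERT2 arrays, a change of -0.27 (SE 0.07, adjusted p = 0.0477). The calls of Afg3l2 and Htra2 were lost after a further quantile normalization, and those of all 3 genes without ERT2 replicate 1 or 2 or any CRE-ERT2 array, and with all probe sets tested. Htra2 was also lost with arrays centred on their medians (adjusted p = 0.0561) and without ERT2 replicate 3 (adjusted p = 0.0902).

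Of 15 endoplasmic reticulum folding genes, 0 passed and the median was -0.04. Creld2 differed by -0.17 (adjusted p = 0.327) and P4hb, a protein disulfide isomerase, by -0.14 (adjusted p = 0.397). A last list held 8 genes, further heat shock factors and small heat shock proteins, with Hsf2bp and Hsbp1, which bind heat shock factors, counted among them. Of these 0 passed and the median was -0.02, with -0.10 for Hsf5 and 0.11 for Odf1.

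**Figure D4:**
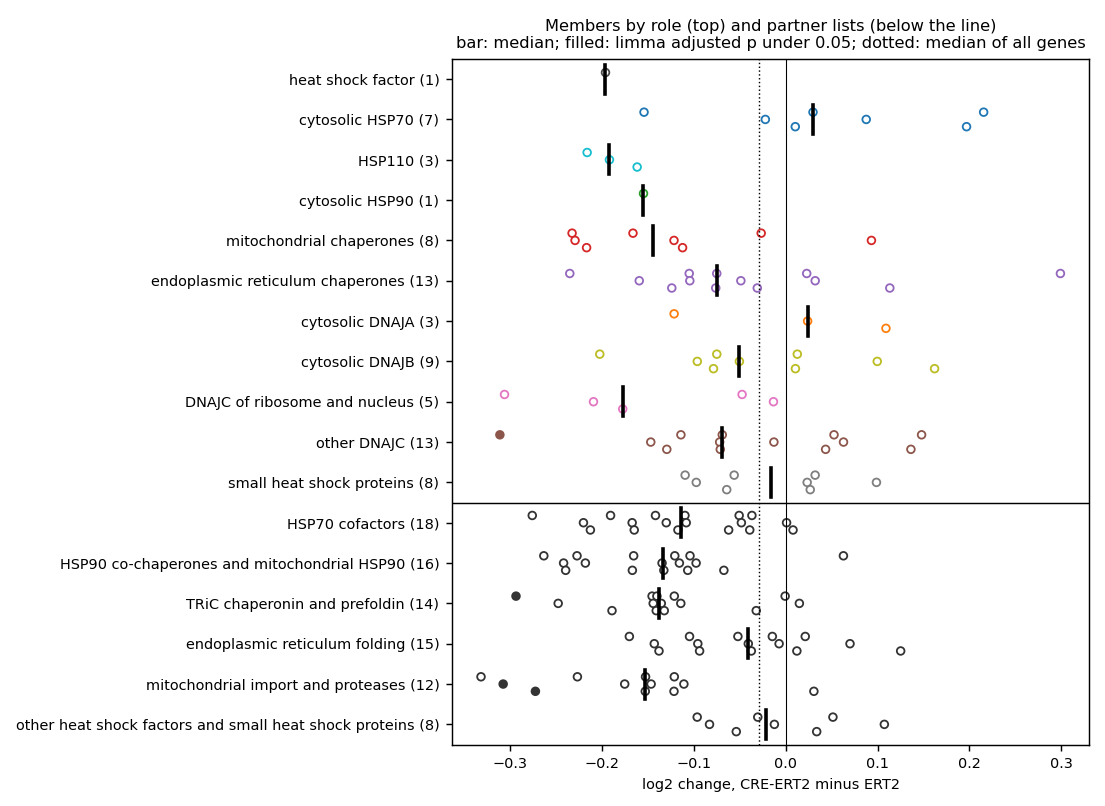
Log2 changes (CRE-ERT2 minus ERT2) of the members by role and of the partner genes by list, 1 point a gene and a bar at each median. The HSP110, mitochondrial and ribosome or nucleus groups have medians of -0.19, -0.14 and -0.18, while the cytosolic HSP70 and DNAJA medians lie at 0.03 and 0.02. The DNAJA median is the value of Dnaja1 on its brightest probe set, and the other probe set of Dnaja1 gave -0.24.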

How the data were processed

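Total RNA of 6 samples, 3 per group, was hybridised to Affymetrix arrays. The deposited values are on the log2 scale, as read from their range; the submitters' processing notes list RMA and Partek 6.5. Of 35556 probe sets, 21789 had 1 gene symbol, 1621 several and 12146 none; the brightest single-gene probe set was kept for each of 19938 genes. Groups were compared with limma 3.58.1 (lmFit and eBayes) in R 4.3.3, with Benjamini-Hochberg adjustment over all 19938 genes and a threshold of 0.05. Ptpn6 was also tested by exact permutation. The fit was tested on simulated data, where the check required calls only for planted changes larger than any member's change here. The number of arrays limits the precision.

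The members and gene lists were chosen with earlier results of these data known. Named genes were Ptpn6, members that passed, the 16 largest changes among members, a fixed set of members by role, and from each list those that passed or else the 2 with the smallest p; other members are named to complete a role group. The motif pair spaced by 9 bases, the promoters shown and the marker sums were chosen after the data were seen. Alternatives were a further quantile normalization, centring, testing only the 13292 brightest genes, averaging probe sets by gene, fitting every probe set, blocking on replicate number, a robust variance with a trend, weighting arrays, and leaving out each array.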

Additional observations from a re-analysis of the deposited data

How the results depend on the processing

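Members that rose numbered 1 (Dnajb14) with only the 13292 brightest genes tested and 0 in the other 13 alternatives. Members that fell numbered 0 after a further quantile normalization, with centring, with all probe sets tested and with the replicate block, 2 with those brightest genes, 4 with a trended and robust variance, and 0 to 2 when 1 array was left out. The same replicate numbers did not pair the samples (correlations of deviations -0.11, -0.37 and -0.07). CRE-ERT2 replicates 1, 2 and 3 correlated by 0.449, 0.396 and 0.180 with ERT2 replicates 2, 3 and 1. With ERT2 replicates 3, 1 and 2 they correlated by -0.315, -0.0421 and -0.111. Whether the samples are linked in another order was not tested. The block on replicate number took calls over all genes to 589. It ended those of Dnajc27, Cct8, Afg3l2 and Htra2 (limma adjusted p = 0.104, 0.0977, 0.0881 and 0.135). With all probe sets tested, 298 of 35556 probe sets passed. Calls over the 19938 genes were 560 to 629 without CRE-ERT2 replicate 1 or 2 or ERT2 replicate 1, 453 without CRE-ERT2 replicate 3, and 1544 with the trended variance. The members' median change was -0.041 after quantile normalization, which moved the median of all genes to -0.01.

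Among 45 named genes and 14 alternatives, 570 of 628 pairs kept direction and call, 34 lost a call, 10 gained one and 14 turned, in 8 genes. Dnaja1 was -0.11 with the mean of its probe sets and -0.0523 to 0.114 when 1 array was left out. Dnajb9 was -0.000223 with array weights and -0.0302 to 0.0869 when 1 array was left out. Hspa8 was -0.0088 after quantile normalization and -0.0022 to 0.0556 when 1 array was left out. In the same leave-out setting Dnajb6 ran from -0.0192 to 0.0598, Dnajc10 from -0.112 to 0.0401, Dnajc3 from -0.129 to 0.0206, Hsp90b1 from -0.0764 to 0.0248 and Hspb1 from -0.085 to 0.0996. The cause was not tested.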
